A study of Mus musculus with 14 samples.

Results

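Immediate early, heat shock and clock genes were followed across 5 sorted mammary cell populations of the mouse. The genes were chosen by symbol alone: every probe set with a single gene symbol beginning with Fos, Jun, Egr, Atf3, Ier, Dusp, Klf, Nr4a, Hspa, Hspb, Hsp90, Hsph, Dnaj, Btg, Zfp36, Gadd45 or Socs, together with Myc and the Per genes, was taken from the deposited table and averaged per gene. This gave 75 genes from 105 probe sets, out of 6044 named genes, and 22 of the 75 were measured by more than 1 probe set. There were 41 genes of the immediate early and feedback families, 33 heat shock genes and 1 clock gene, Per1. Symbols do not always follow function, and the 75 also held Ier3ip1, Zfp362, Zfp365, Zfp367, Hspb11 and Junos (a transcript from the opposite strand of Jun), which carry a family prefix without belonging to that family. Fos, Jun, Junb, Egr1, Atf3, Zfp36, Dusp1, Nr4a1, Klf2, Klf4, Hspa5, Per2 and Per3 were not analysed here.

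RNA came from mammary glands of virgin female C57BL/6 mice aged 6 to 8 weeks and was hybridised to 14 Affymetrix mouse arrays, with 2 rounds of amplification in the labelling. The luminal arrays held 3 replicates of CD24highCD49fmed cells, the luminal progenitor gate, and 2 of CD24medCD49f-/low cells, the gate of differentiated luminal cells. The basal arrays held 3 replicates each of Thy-1+CD24medCD49fhigh cells, Thy-1-CD24medCD49fhigh cells and CD24medCD49fmed cells, the myoepithelial gate (named CD24lowCD49fmed in the study's text). All groups shared enzymatic dissociation, depletion of cells carrying CD45, CD31 or Ter119, and a double sort before RNA was taken, so the effect of these steps on fast-responding genes cannot be told apart from the state of the cells in the gland. Whether the replicates of a population are different animals is not stated in the labels, and p-values then measure only the spread between these samples, which may be technical.

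Immediate early genes are transcribed within minutes of a growth factor, cytokine or stress signal without new protein synthesis, and many encode transcription factors (Egr, AP-1, Nr4a, Klf) or proteins that end the signal again (Dusp phosphatases, Socs). Heat shock genes encode chaperones: Hsp70 proteins (Hspa) bind unfolded chains, J-domain partners (Dnaj) deliver the chains to them, Hsp110 (Hsph1) exchanges their nucleotide and small heat shock proteins (Hspb) hold unfolded chains, and the inducible members are switched on by heat shock factor 1 through repeated GAA and TTC blocks. Per1 belongs to the negative arm of the circadian clock and is also induced quickly by glucocorticoid and cAMP signals. In the mammary gland, AP-1, Egr and Myc proteins are known for roles in growth factor and integrin responses of the epithelium.

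Values are log2 signals that the authors centred on the mean of all 14 arrays, so 0 is a gene's own average, 1 is a doubling, and levels cannot be compared between genes. Marker counts are of genes past an adjusted p of 0.05 in the linear model described below. Over all rows 27.7% passed as higher and 17.4% as lower in luminal arrays. The labelled lineages showed their markers: 15 of 16 basal epithelial markers were lower in luminal arrays (median difference -4.01) and 15 of 15 luminal epithelial markers were higher (median 2.94). Markers of other cell types were also unequal, with 7 of 10 fibroblast, 5 of 11 endothelial, 4 of 6 pericyte and 2 of 4 adipocyte markers lower in luminal arrays. So were 4 of 5 cornified keratinocyte and 3 of 5 Schwann cell markers. Higher in luminal arrays were 2 of 6 myeloid markers and 1 marker each of the fibroblast, pericyte and Schwann cell lists. Differences were below 0, passing or not, for all 16 basal epithelial, 9 fibroblast, 10 endothelial, 5 pericyte and 4 adipocyte markers. Of the myeloid markers 4 were above 0. Over all 7190 rows, 2824 were below 0. Replicates 1 and 3 of Thy-1+CD24medCD49fhigh cells stood below the other arrays over the whole table (medians over 7190 rows of -0.74 and -0.51, against -0.15 to 0.28 in the other 12 arrays). In these bulk samples fewer cells of a type and less RNA per cell cannot be told apart.

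Among the early-response regulators, Egr2, Egr3 and Myc were lower in luminal cells, while 4 of 9 Dusp genes, Gadd45a, Gadd45g, Klf6 and 9 of 19 J-domain genes were higher. In the linear model (limma, Benjamini-Hochberg adjustment over 7190 rows, threshold 0.05), 35 of the 75 genes passed for luminal against basal arrays, 23 higher and 12 lower. The share over all rows was 45.1% (27.7% higher and 17.4% lower), so these families passed about as often as the table as a whole. Luminal and basal arrays did not overlap for 19 of the 75 genes (15 higher, 4 lower), against 26.0% of all rows (16.5% higher, 9.51% lower), and 42 genes had an unadjusted p under 0.05 (53.2% of rows). The median difference over the 75 genes was 0.46, against 0.33 over all rows, and with each array centred on its own median these became 0.19 and 0.07. That centring also turned the split of calls over all rows (1436 higher and 1560 lower, against 1989 and 1253 as deposited) and gave 19 higher and 15 lower of the 75 genes. By class of symbol, 12 genes of 41 in the immediate early class were higher and 10 lower. In the heat shock class 10 genes of 33 were higher and 2 lower, and Per1 was higher. The immediate early counts include Ier3ip1 (higher) and Zfp365 (lower), which share only a prefix with their family. The 40 genes that did not pass had differences between -0.83 (Socs2) and 0.80 (Socs6).

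**Figure D1:**
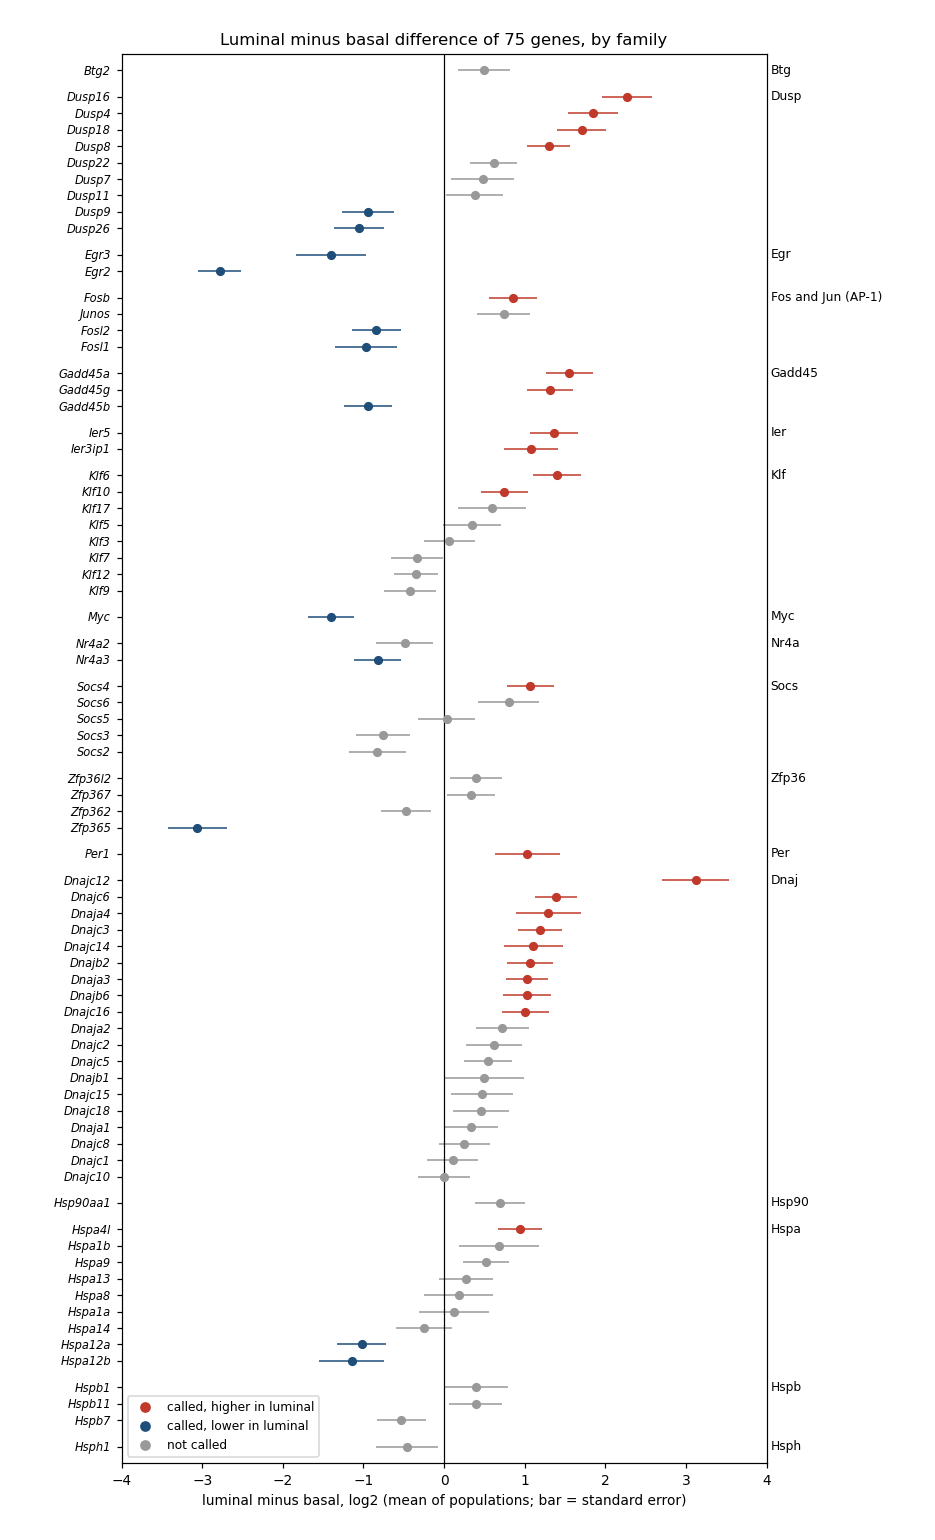
Luminal minus basal difference (log2, x axis) of each of the 75 genes, 1 point per gene, grouped by family down the page, with bars for the standard error and colour for genes past the adjusted threshold (red higher, blue lower in luminal arrays, grey neither). The Dnaj points lie almost wholly to the right of 0, while both Egr points and Myc lie to the left.

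Egr2, an early growth response zinc finger factor, gave the clearest separation of the lineages among these genes. Its luminal values were -2.35, -1.60 and -1.88 in CD24highCD49fmed cells and -1.25 and -1.97 in CD24medCD49f-/low cells, against a lowest, median and highest basal value of 0.43, 1.02 and 1.29. No luminal array reached any basal array, and Egr2 was 6.89-fold lower in luminal cells (difference -2.78, SE 0.27, limma adjusted p = 1.21e-07). Only 3.63% of the variation of Egr2 lay within populations, the smallest share of the 75 genes, where the median gene had 45.5% and the median over all rows was 45.6%. Leaving out any single array kept this call.

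Egr3, the related factor, followed Egr2 in direction with much more scatter. CD24highCD49fmed cells had -2.66, 0.24 and -0.90 and CD24medCD49f-/low cells had -1.29 and -0.04, against -0.60, 0.95 and 1.23 for the lowest, median and highest basal array. The lineages overlapped, and the difference was -1.40 (SE 0.43, adjusted p = 0.0125), a call lost without CD24medCD49f-/low replicate 1 (adjusted p = 0.106) or CD24highCD49fmed replicate 1 (adjusted p = 0.0538), and with array weights (adjusted p = 0.0577). Myc, the growth-driving bHLH factor, had -0.79, -1.25 and -1.49 in CD24highCD49fmed cells and -0.27 and -0.90 in CD24medCD49f-/low cells, against basal values of -0.40, 0.66 and 0.87 (lowest, median, highest). The lineages met only at Thy-1+CD24medCD49fhigh replicate 3, the lowest basal array, and Myc was 2.64-fold lower in luminal cells (difference -1.40, SE 0.28, adjusted p = 0.000459).

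The Egr2 promoter window is shown because serum-induced Egr genes are classically switched on by serum response factor at CArG boxes. The window runs from 250 bases before to 50 after an annotated start (RefSeq, GRCm38.p6, chr10:67537316-67537615, plus strand), with the match in capitals 72 bases before the start. Egr2 has 5 such windows in the table and 4 hold a match.
Egr2: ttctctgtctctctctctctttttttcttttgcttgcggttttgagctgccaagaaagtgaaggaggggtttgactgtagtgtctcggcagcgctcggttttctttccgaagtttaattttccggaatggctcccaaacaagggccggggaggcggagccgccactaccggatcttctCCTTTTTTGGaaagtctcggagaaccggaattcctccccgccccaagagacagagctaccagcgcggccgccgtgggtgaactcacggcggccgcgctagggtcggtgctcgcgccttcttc
Over all 32851 promoter windows of this length, 1.63% held a CArG box on either strand. Among the 53 of the 75 genes with a window it was found in Egr2 and Dnajc16. The share is per window, whereas a gene counts with a match in any of its windows, so they are not directly comparable. A match to these letters is a description of the window and no evidence of binding in these cells.

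The AP-1 members split by subunit. Fosl1 (Fra-1) and Fosl2 (Fra-2) were lower in luminal arrays, with differences of -0.97 (SE 0.38, adjusted p = 0.0459) and -0.84 (SE 0.30, adjusted p = 0.0288), and Fosb was higher at 0.85 (SE 0.30, adjusted p = 0.0268). Fosb had -0.17, 0.50 and 0.03 in CD24highCD49fmed cells and 0.88 and 1.20 in CD24medCD49f-/low cells, against -1.51, -0.25 and 0.55 for the lowest, median and highest basal array. All 3 genes overlapped between lineages, and each lost its call on leaving out either CD24medCD49f-/low array. Fosb also lost it when each array was centred on its median (0.59, adjusted p = 0.124), and Fosl1 with the replicate number as a block (-0.83, adjusted p = 0.0613). Fosl1 lost it too without any CD24highCD49fmed array, CD24medCD49fmed replicate 2 or 3, or Thy-1-CD24medCD49fhigh replicate 1 or 3. Fosb lost it without CD24highCD49fmed replicate 2, and Fosl2 without CD24highCD49fmed replicate 1 or 3 or CD24medCD49fmed replicate 2. Of the Nr4a orphan nuclear receptors, Nr4a3 was lower in luminal arrays (difference -0.82, SE 0.29, adjusted p = 0.0281, and 0.0837 without CD24highCD49fmed replicate 1). The Nr4a3 call was also lost without CD24medCD49f-/low replicate 1 (0.100) or 2 (0.0906), CD24medCD49fmed replicate 2 (0.0557) or Thy-1-CD24medCD49fhigh replicate 3 (0.0539). Nr4a2 differed by -0.49 (SE 0.35, adjusted p = 0.256). The antiproliferative Btg2 differed by 0.50 (SE 0.32, adjusted p = 0.212).

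The 3 Gadd45 genes, which encode small stress-induced proteins that act on MAP kinase kinase kinases and the cell cycle, did not move together. Gadd45a had 1.22, 1.54 and 1.40 in CD24highCD49fmed cells and 0.21 and 0.90 in CD24medCD49f-/low cells, against -1.61, -0.42 and 0.12 for the lowest, median and highest basal array. Every luminal array was above every basal array (difference 1.55, SE 0.29, adjusted p = 0.000214). Gadd45g also rose (1.31, SE 0.28, adjusted p = 0.000959), with luminal values of 0.28 to 1.35 above basal values of -0.93 to -0.02. Gadd45b fell by 0.94 (SE 0.30, adjusted p = 0.0146), its lineages overlapped, and the call was lost without CD24medCD49f-/low replicate 2 (adjusted p = 0.109).

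Of the 9 dual-specificity phosphatases, most of which switch off MAP kinases, 4 rose in luminal cells and 2 fell, against 27.7% and 17.4% of all rows. Dusp16, a JNK and p38 phosphatase, had 1.46, 1.55 and 1.75 in CD24highCD49fmed cells and 1.10 and 1.53 in CD24medCD49f-/low cells, against -2.34, -0.46 and -0.15 for the lowest, median and highest basal array. The 5 luminal arrays lay close together and wholly above the basal arrays (difference 2.27, SE 0.31, adjusted p = 8.35e-06). Dusp4, an ERK phosphatase, had 1.93, 1.33 and 1.41 in CD24highCD49fmed cells and 0.55 and 0.97 in CD24medCD49f-/low cells, against -2.79, -0.37 and 0.29. It was 3.60-fold higher in luminal cells (SE 0.31 log2, adjusted p = 7.05e-05) without overlap.

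Dusp18, an atypical member, had luminal values of 0.46 to 1.83 against basal values of -1.13 to -0.17 (difference 1.71, SE 0.31, adjusted p = 0.000166). Dusp8, another JNK and p38 phosphatase, had luminal values of 0.18 to 1.46 against basal values of -0.90 to -0.02 (1.30, SE 0.26, adjusted p = 0.000541). Neither overlapped between lineages. Dusp26 and the ERK phosphatase Dusp9 were lower in luminal cells, with differences of -1.05 (SE 0.31, adjusted p = 0.00983) and -0.95 (SE 0.32, adjusted p = 0.0214), and Dusp26 lost its call without CD24medCD49f-/low replicate 2 (adjusted p = 0.0626) and Dusp9 without either array of that population (0.0941 and 0.0616). Dusp7, Dusp11 and Dusp22 did not pass, with differences of 0.48, 0.38 and 0.62.

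Klf6, a Krüppel-like zinc finger factor induced by injury and serum, had 0.87, 0.93 and 0.63 in CD24highCD49fmed cells and 0.85 and 1.15 in CD24medCD49f-/low cells, against -1.62, -0.28 and -0.10 for the lowest, median and highest basal array. No basal array reached a luminal one, and Klf6 was 2.63-fold higher in luminal cells (SE 0.30 log2, adjusted p = 0.000742). Klf10, a TGF-beta-induced member, had luminal values of 0.14 to 0.83 that overlapped basal values of -1.64 to 0.33 (difference 0.74, SE 0.29, adjusted p = 0.0441), a call lost under most alternatives (0.0974 with each array centred on its median, 0.0613 with the replicate number as a block). The other 6 Klf genes did not pass, and the family median of 0.20 became -0.06 with each array centred on its median. Ier5, an immediate early gene whose human product acts on heat shock factor 1, rose by 1.36 (SE 0.30, adjusted p = 0.00115), with luminal values of 0.35 to 1.19 and basal values of -1.54 to 0.38.

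Of the 5 Socs genes, which encode feedback inhibitors of cytokine signalling, Socs4 rose (1.07, SE 0.29, adjusted p = 0.0053), with luminal values of 0.44 to 1.11 above basal values of -1.09 to 0.17. Socs3, the classic STAT3 feedback gene, differed by -0.76 (SE 0.33, adjusted p = 0.0689) and Socs2 by -0.83 (SE 0.35, adjusted p = 0.0611). Zfp365, which shares only its prefix with the mRNA decay factors of the Zfp36 family, had the largest fall of the 75 genes. Its values were -2.10, -1.62 and -1.45 in CD24highCD49fmed cells and -2.54 and -1.96 in CD24medCD49f-/low cells, against -0.36, 1.08 and 1.81 for the lowest, median and highest basal array. Zfp365 was 8.35-fold lower in luminal cells without overlap (SE 0.37 log2, adjusted p = 1.73e-06), while Zfp36l2, the one decay factor measured, differed by 0.39 and did not pass.

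Per1 was the one period gene measured. It had 0.17, 0.15 and -0.14 in CD24highCD49fmed cells and 1.28 and 1.44 in CD24medCD49f-/low cells, against -2.50, -0.22 and 0.58 for the lowest, median and highest basal array. Only the CD24medCD49f-/low arrays lay above all basal arrays, and the luminal minus basal difference was 1.03 (SE 0.40, adjusted p = 0.043). An exact permutation test over all splits of the 14 arrays, two-sided, gave p = 0.0884 for Per1 and p = 0.0604 for Klf10, the only 2 of the 35 passing genes above 0.05 in that test, whose smallest possible p was 0.0005. The Per1 call was also lost on centring each array on its median (0.76, adjusted p = 0.138) and with quantile normalization (0.90, adjusted p = 0.0961). Leaving out any single luminal array lost it, among them CD24highCD49fmed replicates 1, 2 and 3 (adjusted p = 0.0853, 0.077 and 0.0608). Leaving out CD24medCD49fmed replicate 2 or Thy-1+CD24medCD49fhigh replicate 1 or 2 also lost it. Without CD24medCD49f-/low replicate 1 or 2 the difference was 1.07 or 0.99.

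Around Per1, 7 of 20 listed clock genes were measured and 3 were higher in luminal cells, none lower (27.7% and 17.4% of all rows). Csnk1e, the casein kinase that phosphorylates PER proteins, was 3.58-fold higher (SE 0.31 log2, adjusted p = 7.35e-05). Cry2, the repressor partner of PER, was 3.22-fold higher (SE 0.28 log2, adjusted p = 6.39e-05), with luminal values of 0.65 to 1.36 against basal values of -1.49 to -0.24. Bhlhe41, a repressor acting on the same E-boxes, was 2.53-fold higher (SE 0.26 log2, adjusted p = 0.00033). These 3 genes separated the lineages without overlap. The Per1 window with an E-box (CACGTG, in capitals, 166 bases before the start) is shown because clock factors act on Per1 through such elements (RefSeq, GRCm38.p6, chr11:69098699-69098998, plus strand, 1 of 2 windows of the gene with a match).
Per1: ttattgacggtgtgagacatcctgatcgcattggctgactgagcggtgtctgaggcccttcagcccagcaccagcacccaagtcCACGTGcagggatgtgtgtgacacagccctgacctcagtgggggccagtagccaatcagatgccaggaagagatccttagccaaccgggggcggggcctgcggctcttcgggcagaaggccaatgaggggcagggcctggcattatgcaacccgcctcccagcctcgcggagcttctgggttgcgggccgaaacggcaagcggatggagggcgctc
The letters CACGTG occurred in 7.15% of all windows and in at least 1 window of 10 of the 53 genes. The share per window and the count per gene are not directly comparable.

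**Figure D2:**
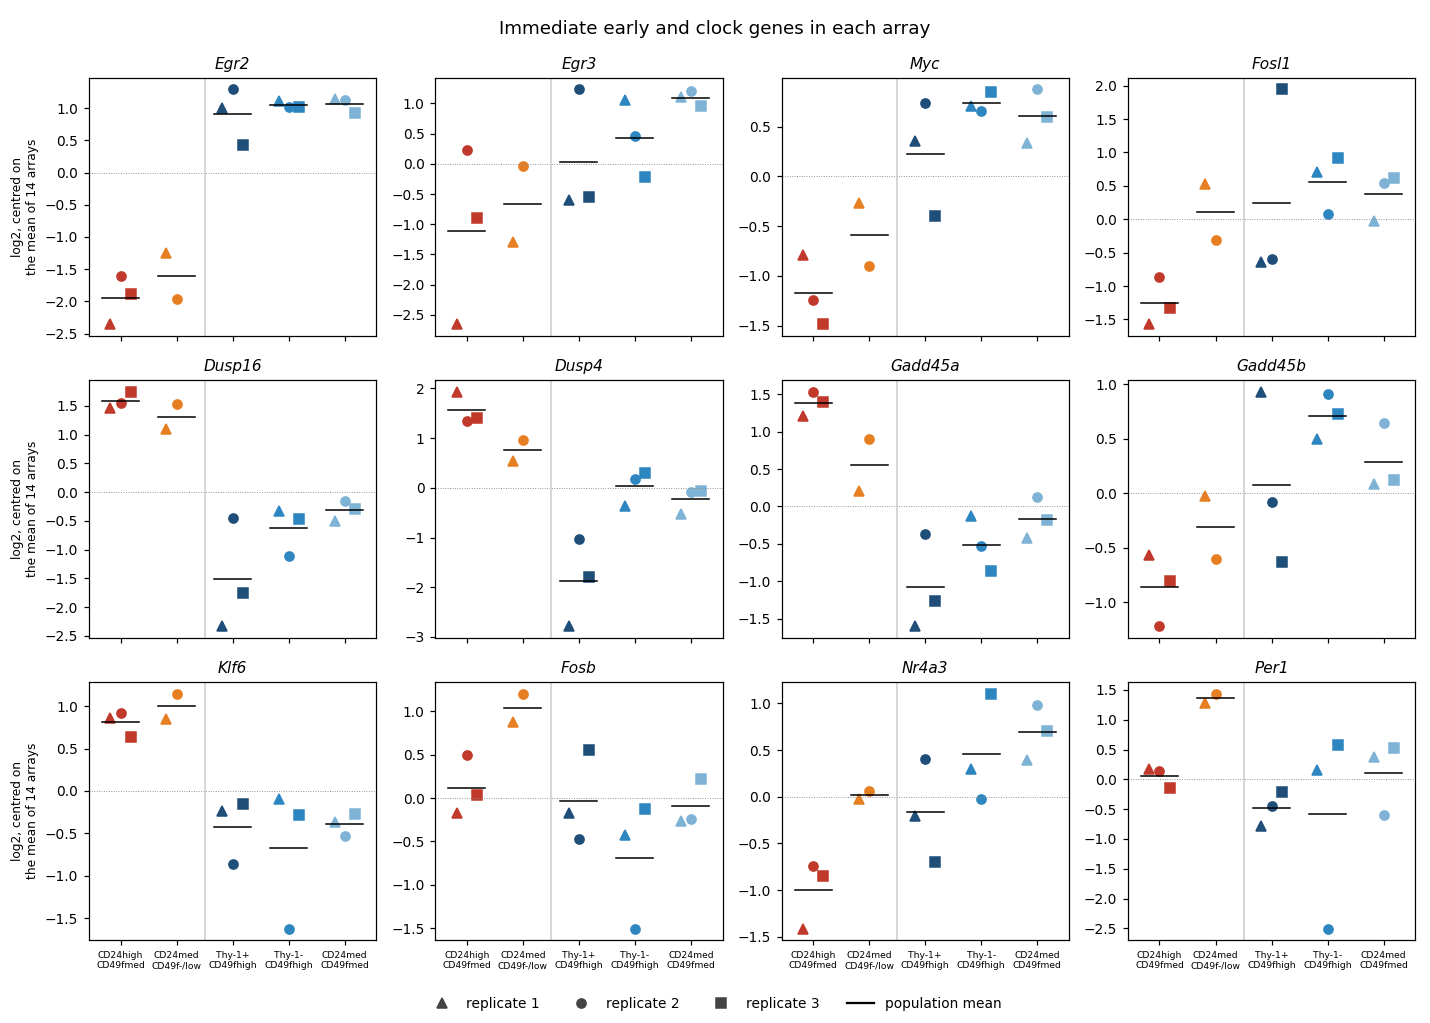
Centred log2 values (y axis) of immediate early and clock genes in each of the 14 arrays, 1 panel per gene, 1 point per array and a bar at each population mean, with the luminal populations left of the basal ones. Egr2 separates the lineages with little scatter, at -2.35 to -1.25 in luminal arrays and 0.43 to 1.29 in basal arrays, while Per1 is highest in the 2 CD24medCD49f-/low arrays.

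Other immediate early genes outside the chosen families (22 of 39 listed were measured) were also divided, with 5 higher and 5 lower in luminal cells. The largest differences were falls: Ccn2 (connective tissue growth factor) was 11.9-fold lower (SE 0.40 log2, adjusted p = 8.71e-07), the small GTPase Gem 8.95-fold lower (SE 0.38, adjusted p = 1.77e-06) and the cytoskeletal Arc 6.68-fold lower (SE 0.36, adjusted p = 4.47e-06). Luminal values of Ccn2 were -2.71 to -1.62 and basal values -1.71 to 2.17, where the lowest basal array was again Thy-1+CD24medCD49fhigh replicate 3. In a list of 8 cytokine and ERK feedback genes, 1 was higher and 3 lower. For both lists the shares over all rows were 27.7% higher and 17.4% lower.

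The J-domain genes were the largest family. Of 19 Dnaj genes, 9 were higher in luminal cells (27.7% of all rows were) and none lower, 18 had a difference above 0 and 16 a difference above the all-row median, and the median was 0.72 (0.45 with each array centred on its median). Dnajc12, a cochaperone of the aromatic amino acid hydroxylases, had 2.35, 2.31 and 2.79 in CD24highCD49fmed cells and 1.18 and 1.73 in CD24medCD49f-/low cells, against -2.88, -1.16 and 0.51 for the lowest, median and highest basal array. It was 8.69-fold higher in luminal cells, the largest rise of the 75 genes (SE 0.41 log2, adjusted p = 5.57e-06), and did not overlap. Dnajc6, the clathrin-uncoating auxilin, had luminal values of 0.61 to 1.08 and basal values of -1.06 to 0.00, again without overlap (difference 1.39, SE 0.26, adjusted p = 0.000269).

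The remaining 7 Dnaj genes that rose did so by 1.01 to 1.29. They were the mitochondrial Dnaja3, the endoplasmic reticulum protein Dnajc3 that restrains PERK, the aggregation-suppressing Dnajb6 and Dnajb2, and Dnaja4, Dnajc14 and Dnajc16. For Dnaja3 the luminal arrays (0.25 to 1.26) lay above all basal arrays (-0.96 to -0.10). Dnaja4 had 2.10, 0.02 and 0.21 in CD24highCD49fmed cells and 1.81 and -0.02 in CD24medCD49f-/low cells, with replicate 1 the highest. Replicate 1 was also high in CD24medCD49fmed cells (0.52, mean of the others -0.52) and Thy-1-CD24medCD49fhigh cells (0.88, others -0.63). In Thy-1+CD24medCD49fhigh cells it was -0.99, others -1.11. The rise was 1.29 (SE 0.40, adjusted p = 0.0137), and the call was kept with the replicate number as a block. Without CD24highCD49fmed replicate 1 the Dnaja4 difference was 0.96 (adjusted p = 0.0593), and with each array centred on its median 1.02 (adjusted p = 0.0622). Without CD24medCD49f-/low replicate 1, which left 1 array of that population, the difference was 0.84 and did not pass. The stress-inducible Hsp40 Dnajb1 differed by 0.50 (SE 0.49, adjusted p = 0.412) and Dnaja1 by 0.34.

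The Hsp70 genes showed no common direction between lineages. Hspa4l rose (0.94, SE 0.28, adjusted p = 0.00954), whereas the atypical members Hspa12a and Hspa12b fell by 1.02 (SE 0.30, adjusted p = 0.00957) and 1.15 (SE 0.40, adjusted p = 0.025). Hspa12b had -0.92, -0.87 and -0.79 in CD24highCD49fmed cells and -0.57 and -0.62 in CD24medCD49f-/low cells, against 2.60, -0.21 and -0.14 in Thy-1+CD24medCD49fhigh cells, 0.02, -0.24 and 0.04 in Thy-1-CD24medCD49fhigh cells and 1.34, 0.55 and -0.20 in CD24medCD49fmed cells. Hspa12b is known from endothelium, and its highest arrays were among those with the highest endothelial marker medians: 2.76 in Thy-1+CD24medCD49fhigh replicate 1 and 2.66 in CD24medCD49fmed replicate 1, against -0.88 to -0.69 in the 5 luminal arrays. The part of endothelial RNA in the Hspa12b difference was not tested. Without CD24medCD49fmed replicate 1 the adjusted p of Hspa12b was 0.0515. It was 0.0758 and 0.0885 without CD24medCD49f-/low replicates 1 and 2, and 0.0527 without CD24highCD49fmed replicate 1. The call was kept without Thy-1+CD24medCD49fhigh replicate 1.

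The inducible Hsp70 genes Hspa1a and Hspa1b differed between lineages by 0.13 (SE 0.43, adjusted p = 0.82) and 0.68 (SE 0.50, adjusted p = 0.263), and the constitutive Hspa8 by 0.18 (SE 0.43, adjusted p = 0.746). Hsp90aa1, the inducible cytosolic Hsp90, differed by 0.69 (SE 0.31, adjusted p = 0.077), Hsph1 by -0.46 (SE 0.39, adjusted p = 0.33) and Hspb1 (Hsp27) by 0.40 (SE 0.40, adjusted p = 0.415). The median of the 9 Hspa genes, 0.18, became -0.09 with each array centred on its median. The arrays of 1 population differed widely for most of these genes.

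Chaperones outside the chosen families showed few calls: of 14 measured, St13 (the Hsp70 cochaperone Hip) rose by 0.96 (SE 0.33, adjusted p = 0.0224) and Serpinh1, the collagen chaperone Hsp47, fell by 2.16 (SE 0.36, adjusted p = 8.45e-05). Fkbp4, an Hsp90 immunophilin, differed by 1.11 (SE 0.55, adjusted p = 0.103). Of 7 unfolded protein response genes all had differences above 0, as had 4366 of all 7190 rows, and 4 rose. Over all rows 27.7% rose and 17.4% fell. Among the 4 were the sensor Ern1 (IRE1) at 1.51 (SE 0.26, adjusted p = 0.000112), its target Xbp1 at 1.62 (SE 0.36, adjusted p = 0.00107) and the secreted factor Manf at 1.14 (SE 0.33, adjusted p = 0.00923). Luminal values of Ern1 were 0.57 to 1.61 and basal values -0.83 to -0.08, without overlap.

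Within the luminal lineage, 5 of the 75 genes passed for CD24highCD49fmed against CD24medCD49f-/low cells, 1 higher and 4 lower, against 5.59% of all rows (3.02% higher, 2.57% lower), and 20 had an unadjusted p under 0.05 (27.0% of rows). Per1 had 0.17, 0.15 and -0.14 in CD24highCD49fmed cells against 1.28 and 1.44 in CD24medCD49f-/low cells, with no overlap, and was 2.46-fold lower (SE 0.19 log2, limma adjusted p = 0.0137). Dusp8 had 0.42, 0.55 and 0.18 in CD24highCD49fmed cells against 1.46 and 1.25 in CD24medCD49f-/low cells (difference -0.97, SE 0.20, adjusted p = 0.031). Both CD24medCD49f-/low arrays were above all 3 CD24highCD49fmed arrays for Dusp8 as well.

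Fosl1 had -1.57, -0.87 and -1.32 in CD24highCD49fmed cells against 0.53 and -0.31 in CD24medCD49f-/low cells (difference -1.37, SE 0.30, adjusted p = 0.0379). Nr4a3 had -1.41, -0.74 and -0.85 against -0.02 and 0.06 (difference -1.02, SE 0.23, adjusted p = 0.0435). Dnajc12, the member that most strongly marked luminal cells, was the one gene higher in CD24highCD49fmed cells, at 2.35, 2.31 and 2.79 against 1.18 and 1.73 in CD24medCD49f-/low cells (difference 1.03, SE 0.24, adjusted p = 0.0459). None of these 5 genes overlapped, but with 3 arrays against 2 that was true of 32 of the 75 genes and of 47.4% of all rows.

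These luminal calls were fragile, as were those over all rows. In a fit over all 14 arrays none of the 75 passed, where 0.0556% of all rows did. With the replicate number as a block 11 passed (5 higher, 6 lower) where 11.5% of all rows did. Median centring or quantile normalization gave 5 calls, all lower, so the Dnajc12 rise was lost there, and centring turned the split over all rows to 126 higher and 276 lower, against 217 and 185 as deposited. Leaving out CD24highCD49fmed replicate 3 left 0 calls, where 0.0417% of all rows passed. Leaving out CD24highCD49fmed replicate 2 left 1, where 2.02% of all rows passed. Leaving out either CD24medCD49f-/low array left 1 array of that population, too few for a count. Rank products at p under 0.01 picked 6 genes, all lower in CD24highCD49fmed cells: Dusp8, Fosb, Fosl1, Nr4a2, Nr4a3 and Per1 (6.59% of rows were picked). Among the 22 other immediate early genes, 19 had differences below 0, against 2676 of all 7190 rows. Chosen here after their values were seen, the 4 that fell were Cxcl2 (-1.42), Tnfaip3 (-1.17), Ppp1r15a (-0.99) and Nfkbia (-0.96), the NF-kappaB and stress feedback genes among them, and Rgs2 rose (0.93). Myeloid markers moved with this contrast: all 6 had differences below 0 and 2 passed, with list medians of -0.63, -0.38 and -0.46 in CD24highCD49fmed replicates 1 to 3 against 2.54 and 0.23 in CD24medCD49f-/low replicates 1 and 2. The part of myeloid RNA in the immediate early difference was not tested.

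Among the 3 basal populations limma called none of the 75 genes in any comparison (background 0.0417% of rows where Thy-1+CD24medCD49fhigh cells were set against their Thy-1- counterpart, and 0% for each other comparison). Thy-1+CD24medCD49fhigh cells had 3 genes at an unadjusted p under 0.05 against Thy-1-CD24medCD49fhigh cells (5.29% of rows) and 6 genes without overlap (6.66%). Against CD24medCD49fmed cells they had 4 (5.33%) and 9 (8.86%), and against both other populations 12 (15.4%) and 4 (1.56%). Thy-1-CD24medCD49fhigh against CD24medCD49fmed cells gave 0 (1.17%) and 1 (3.74%). Rank products picked Dusp4 (lower in Thy-1+CD24medCD49fhigh than in Thy-1-CD24medCD49fhigh cells) and Dnajc12 and Dusp9 (higher in Thy-1-CD24medCD49fhigh than in CD24medCD49fmed cells), against 2.27% and 2.24% of rows.

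Dusp4 had the smallest p of the 75 genes for Thy-1+CD24medCD49fhigh cells. Its values there were -2.79, -1.03 and -1.80, against -0.37, 0.18 and 0.29 in Thy-1-CD24medCD49fhigh cells and -0.53, -0.09 and -0.06 in CD24medCD49fmed cells. All 3 Thy-1+ arrays lay below the 6 others, also replicate 2, whose median over all rows was not low. The difference was -1.91 (SE 0.69, unadjusted p = 0.00682, limma adjusted p = 0.699) against Thy-1-CD24medCD49fhigh cells and -1.65 (SE 0.57, unadjusted p = 0.0123, adjusted p = 0.548) against CD24medCD49fmed cells.

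Hspa12a and Klf12, a Krüppel-like repressor, pointed the other way. Hspa12a had 2.26, 0.40 and 1.03 in Thy-1+CD24medCD49fhigh cells, against -0.20, 0.31 and -0.15 in Thy-1-CD24medCD49fhigh cells and -0.08, 0.04 and -0.26 in CD24medCD49fmed cells (difference from both 1.29, SE 0.46, unadjusted p = 0.012, adjusted p = 0.317). Klf12 had 1.48, 0.14 and 0.97 in Thy-1+CD24medCD49fhigh cells, against -0.36, -0.44 and -0.13 in Thy-1-CD24medCD49fhigh cells and -0.06, -0.21 and -0.14 in CD24medCD49fmed cells (difference from both 1.09, SE 0.43, unadjusted p = 0.0208, adjusted p = 0.317). For both genes the 3 Thy-1+ arrays were above the 6 others, with replicate 2 the nearest. Schwann cell marker medians were 1.34, 0.53 and 1.78 in the 3 Thy-1+ replicates, and endothelial medians 2.76, -0.02 and -0.06. Pericyte medians were 2.69, 0.05 and 0.41, adipocyte medians 2.54, 0.20 and 0.31, and fibroblast medians 0.86, 0.09 and 1.39. The part of such cells in these values was not tested.

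Dnajc2, a ribosome-associated J-protein, and its partner Hspa14 were low in the same 2 arrays. Dnajc2 had -2.29, 0.25 and -1.59 in Thy-1+CD24medCD49fhigh cells, against 0.01 to 0.45 in Thy-1-CD24medCD49fhigh cells and -0.05 to 0.50 in CD24medCD49fmed cells, and Hspa14 had -1.92, 0.52 and -1.14, against 0.55 to 1.32 and -0.10 to 0.65. Replicate 2 overlapped or neared the other populations for both genes. Without that replicate, 10 of the 75 genes passed against CD24medCD49fmed cells, all lower, where 11.9% of all rows passed, and 21 passed against both other populations (3 higher, 18 lower), where 29.3% of all rows passed. The 2 remaining arrays were the ones that stood low over the whole table. In Thy-1-CD24medCD49fhigh against CD24medCD49fmed cells, Dusp9 had 1.34, 0.43 and 0.98 against -0.34, 0.61 and 0.12 (difference 0.79, SE 0.37, unadjusted p = 0.0575, adjusted p = 0.999).

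Several heat shock genes differed more by replicate number than by population. Hspa1b, an inducible Hsp70 gene, had 1.38 in replicate 1 of CD24highCD49fmed cells, against -0.24 and -0.11 in replicates 2 and 3, and 1.36 in replicate 1 of CD24medCD49f-/low cells, against -0.27 in replicate 2. In Thy-1+CD24medCD49fhigh cells it had 0.62 against -1.55 and -0.87, in Thy-1-CD24medCD49fhigh cells 1.29 against -1.06 and -0.80, and in CD24medCD49fmed cells 1.51 against -0.55 and -0.72. The 5 arrays numbered 1 were thus above the 9 others. Hspa1a, its near-identical neighbour, had 0.92, 0.95, 1.17, 0.88 and 1.01 in replicate 1 of the same 5 populations, against -1.19 to 0.00 in the 9 other arrays. Hspa8, the constitutive Hsp70, had 1.27, 1.09, 0.74, 0.79 and 1.01 in replicate 1, against -0.87 to -0.14 in the 9 others. For these 3 genes no array numbered 2 or 3 reached any array numbered 1.

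A test of any difference between replicate numbers with population in the model was added after these values were seen. In limma, 3 of the 75 genes passed, against 0.292% of all rows (21 of 7190): Hspa1b (replicate 1 minus the others 1.88, SE 0.27, adjusted p = 0.00516), Hspa8 (1.53, SE 0.27, adjusted p = 0.0307) and Hspa1a (1.53, SE 0.28, adjusted p = 0.0331). Hspa1a and Hspa1b share nearly all of their sequence, so their probe sets may read the same transcripts and the 3 calls may be fewer independent ones. Hsph1 (1.24, adjusted p = 0.119), Dnaja4 (1.26, adjusted p = 0.134), Dusp7 (0.97, adjusted p = 0.265), Dnajb1 (0.89, adjusted p = 0.279) and Hspb1 (0.73, adjusted p = 0.381) did not pass. Hsph1 had 0.26, 0.74, 0.95, 1.09 and 0.81 in replicate 1, in the order of populations used above, and its 9 other arrays lay between -1.24 and 0.16.

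Replicate 1 held the highest value in all 5 populations for 6 of the 75 genes (Dnaja4, Dusp7, Hspa1a, Hspa1b, Hspa8 and Hsph1), against 112 of 7190 rows (1.56%). No gene of the 75 was highest in replicate 2 of all 5 populations or in replicate 3 of all 4 that had one, against 90 rows (1.25%) and 125 rows (1.74%). Dnajc16, Dusp11 and Hspb11 (a ciliary transport protein) were lowest in replicate 1 of every population (2.21% of rows), Hspb1 in replicate 2 of every population (0.654%), and Dnaja1 and Hsp90aa1 in replicate 3 of all 4 that had one (2.96%). The call count was 0 in the basal arrays alone (0.459% of rows) and 11 in the luminal arrays alone (1.91% of rows). Leaving out replicate 1 of CD24medCD49fmed or of Thy-1-CD24medCD49fhigh cells left 0 (0.0139% and 0.0556% of rows).

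**Figure D3:**
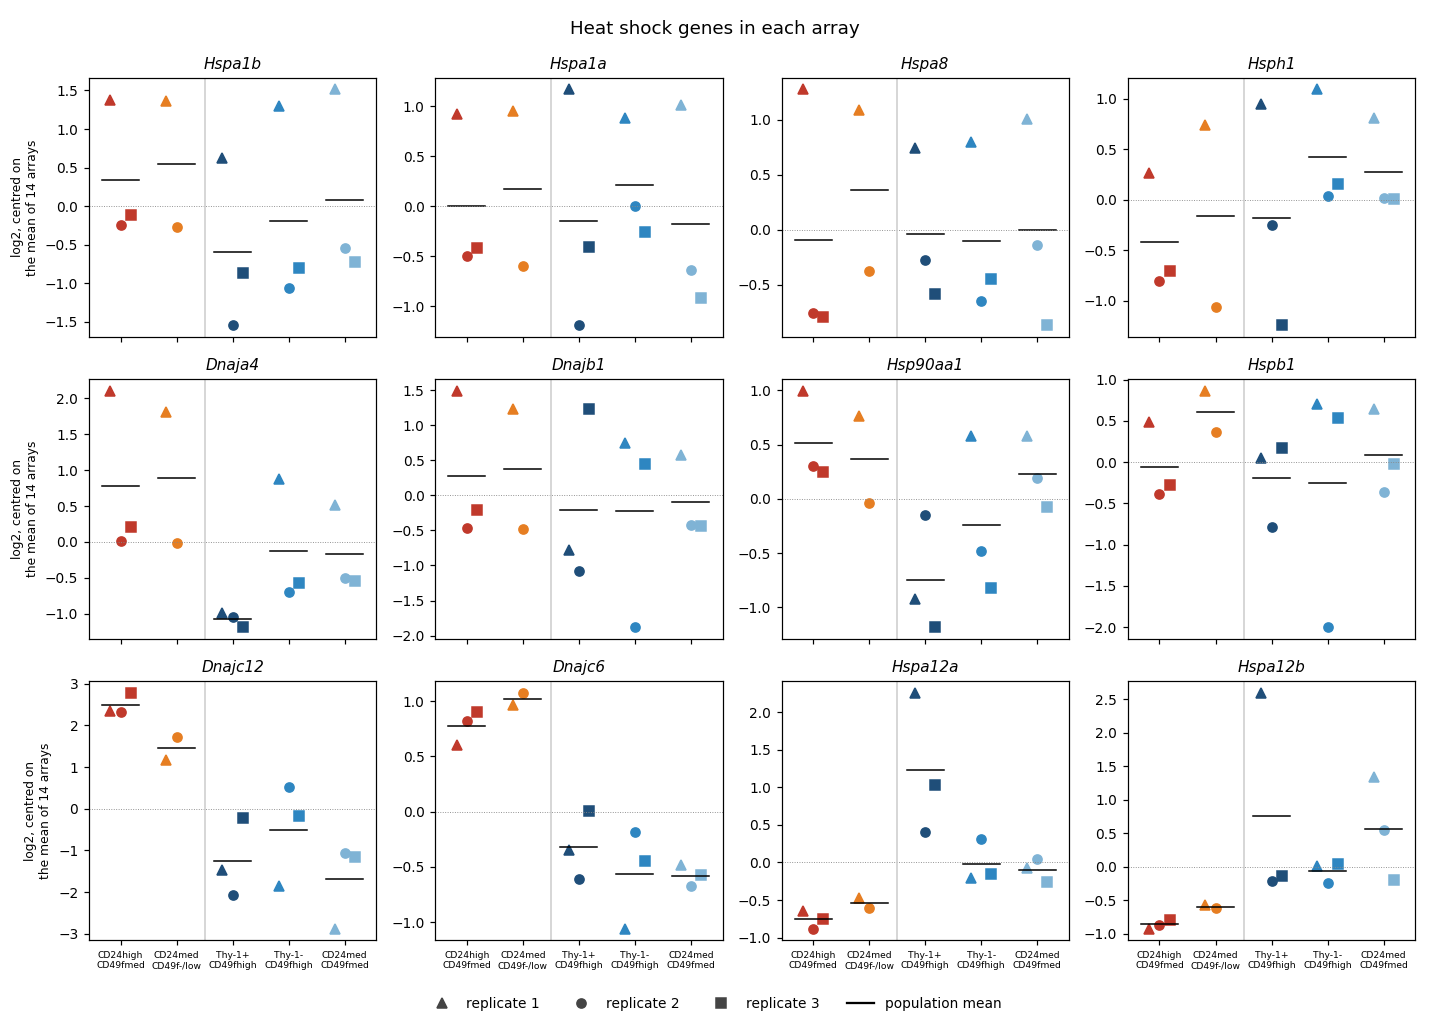
Centred log2 values (y axis) of heat shock genes in each of the 14 arrays, 1 panel per gene, with points for replicates 1, 2 and 3 told apart by marker and the 5 populations along the x axis, luminal left of basal. Replicate 1 is above every other array for Hspa1b (0.62 or more against -0.11 or less), Hspa1a and Hspa8, in luminal and basal populations alike.

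Other lists moved with the replicate number too. All 11 endothelial markers (median 1.42, 1 past the threshold), all 4 adipocyte markers (1.18, 1 past the threshold) and all 6 pericyte markers (0.57) were above 0 for replicate 1 minus the others, and all 5 cornified keratinocyte markers were below 0 (-2.54). The endothelial medians did so mainly in basal arrays. In CD24highCD49fmed cells they were -0.88 in replicate 1, and -0.79 and -0.88 in the others. In CD24medCD49f-/low cells they were -0.69 in replicate 1 and -0.73 in replicate 2. Hspa1b, Hspa1a and Hspa8 were high in replicate 1 of both luminal populations. The part of RNA from other cell types in the replicate difference was not tested. The 14 other chaperones were evenly divided, 7 above and 7 below 0, with none past the threshold, and the 22 other immediate early genes had 13 above and none past it. The labels do not say what a replicate number stands for (an animal, a sort or a labelling run), and these cannot be told apart here.

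Promoter windows are shown for Hspa1b, Hspa1a and Hsph1, textbook targets of heat shock factor 1. Each was highest in replicate 1 of every population. Hspa1b and Hspa1a passed the test between replicate numbers, and Hsph1 did not. Hspa8, which also passed, had no window among those used. Capitals mark a pair of heat shock blocks, GAANNTTC or TTCNNGAA, and each window runs from 250 bases before to 50 after the RefSeq start in GRCm38.p6: chr17:34959189-34959488 (Hspa1b), chr17:34972107-34972406 (Hspa1a) and chr5:149636287-149636586 (Hsph1), all on the minus strand.
Hspa1b: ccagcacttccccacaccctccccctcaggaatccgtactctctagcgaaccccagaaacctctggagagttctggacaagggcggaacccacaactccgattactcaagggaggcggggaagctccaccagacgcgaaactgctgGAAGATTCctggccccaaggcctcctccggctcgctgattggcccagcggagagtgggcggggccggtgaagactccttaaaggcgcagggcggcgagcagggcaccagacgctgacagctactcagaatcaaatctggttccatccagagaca
Hspa1a: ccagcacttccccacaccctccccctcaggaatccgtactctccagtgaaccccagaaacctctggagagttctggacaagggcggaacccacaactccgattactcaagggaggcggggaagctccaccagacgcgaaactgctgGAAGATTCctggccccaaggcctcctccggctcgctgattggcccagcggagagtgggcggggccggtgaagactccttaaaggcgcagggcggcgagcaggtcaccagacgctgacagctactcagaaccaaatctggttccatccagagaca
Hsph1: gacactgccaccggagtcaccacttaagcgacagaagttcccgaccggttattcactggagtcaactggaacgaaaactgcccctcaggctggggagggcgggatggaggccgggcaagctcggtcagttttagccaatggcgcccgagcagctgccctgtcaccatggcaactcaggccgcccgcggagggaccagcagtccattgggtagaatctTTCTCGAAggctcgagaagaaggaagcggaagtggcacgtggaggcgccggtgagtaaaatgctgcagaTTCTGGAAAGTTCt
The match lay 104 bases before the start in both Hspa1 genes, whose windows were identical at 296 of 300 bases (98.7%), and Hsph1 held 3 matches, 1 of them 33 bases before the start and 2 overlapping ones after it. Such a pair occurred in 15.1% of all windows and in 13 of the 53 genes with a window, Dnaja4, Dnajb6 and Hspb1 included. Here too the share is per window and the count is of genes with a match in any window. A triplet of blocks (GAA, NN, TTC, NN, GAA), searched on both strands, occurred in 0.603% of all windows and in Dnajb6 and Hsph1 of the 53. For Dnajb6, replicate 1 minus the mean of the others was 0.16 in CD24highCD49fmed, -0.25 in CD24medCD49f-/low, -0.42 in Thy-1+CD24medCD49fhigh, 0.96 in Thy-1-CD24medCD49fhigh and 0.13 in CD24medCD49fmed cells.

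Over all 75 genes the share of variation within populations was like that of the table, but its extremes had names. The highest shares belonged to Hspa8 (96.1%), Hspa1a (95.9%), Dnajb1 (93.6%) and Dnajc8 (90.8%), followed by Klf3, Hspb1, Hspa1b, Dusp7, Klf9, Dusp11 and Hsph1 (80.1% to 86.6%), and the lowest to Egr2 (3.63%) and Dnajc6 (9.72%). The median was 46.7% for heat shock genes and 38.5% for immediate early genes. By array, replicates 1 and 3 of Thy-1+CD24medCD49fhigh cells held the lowest value of 40 of the 75 genes (53.3%), against 53.6% of all rows.

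**Figure D4:**
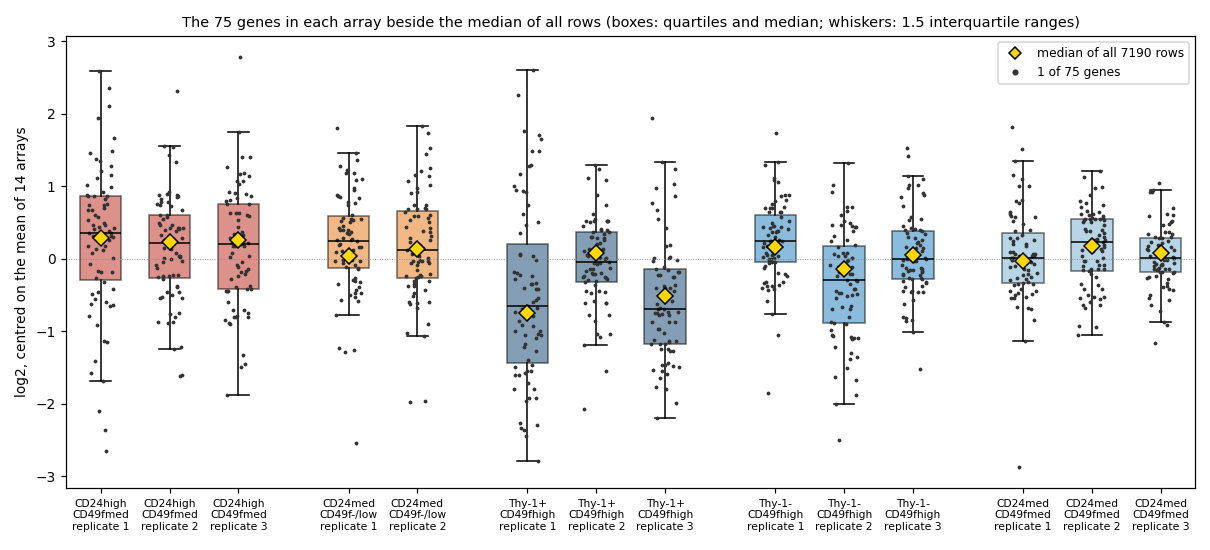
Centred log2 values (y axis) of the 75 genes in each of the 14 arrays (x axis, luminal left of basal), 1 point per gene, with boxes for quartiles and median and a diamond for the median of all 7190 rows. Replicates 1 and 3 of Thy-1+CD24medCD49fhigh cells lie below the other arrays both for the 75 genes (medians -0.65 and -0.69) and for all rows (-0.74 and -0.51).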

How the data were processed

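The authors deposited 1 table of log2 values for 14 arrays: RMA-normalised in MIDAS (the submitters' notes also name GCRMA; no version of either was found in the labels or methods), filtered in Cluster 3.0 for signal and for range, and mean-centred per probe set. The smallest range of a row was 2.0, so genes that varied less were not analysed here, and absolute levels and a filter on dim probe sets could not be had. The number of arrays, 2 or 3 per population, limits the precision.

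Probe sets with 1 symbol were averaged per gene (6044 genes). The 199 probe sets with several symbols and the 947 with none stayed as single rows, which gave 7190 rows from 9645 probe sets. Groups were compared with limma 3.58.1 in R 4.3.3, two-sided, with Benjamini-Hochberg adjusted p under 0.05 over all rows, on the arrays of the groups compared. The luminal against basal contrast was the mean of both luminal populations minus the mean of the 3 basal ones. An exact permutation test over arrays was run for single genes, and rank products were computed in Python 3.11.15 (numpy 2.4.6, pandas 2.3.3) with 100 permutations. Figures were drawn with matplotlib 3.10.9. Alternatives were array weights, a block for the replicate number, single probe sets, median centring, quantile normalization, a minimum absolute difference of 1, all arrays in 1 fit and leaving out each array.

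Whether replicate numbers pair samples was checked by correlating deviations from population means. Same-numbered arrays of CD24medCD49fmed cells correlated with those of Thy-1+CD24medCD49fhigh cells (r = 0.388, 0.391 and 0.386) and of Thy-1-CD24medCD49fhigh cells (0.374, 0.328 and 0.558). The Thy-1+ and Thy-1- arrays of CD24medCD49fhigh cells did not correlate in this way (-0.002, -0.160 and 0.245). Numbers may thus pair some of these groups, but the labels do not say so. The main tests were unpaired, with the block as an alternative.

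The members and gene lists were chosen with earlier results of these data known. Named were the best known members whatever their values, up to 10 called genes each way per comparison, up to 3 each way by smallest p where none was called, the member of each family with the largest luminal minus basal difference, and up to 3 genes of each related list. Other genes are named to account for a count and were chosen after their values were seen. Promoter windows come from RefSeq (GRCm38.p6), and 53 of 75 genes had one.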

Additional observations from a re-analysis of the deposited data

Results flagged for a closer look

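Among 88 combinations of a named gene with a lineage, 9 had 1 array set apart from the others of its lineage by Dixon's test, where chance gives about 1 in 20. All 9 were in the basal arrays. In Thy-1+CD24medCD49fhigh replicate 3, Dnaja1 was at -1.99 (nearest basal array -0.57), Egr2 at 0.43 (nearest 0.92), Fosl2 at -0.75 (nearest 0.15) and Myc at -0.40 (nearest 0.33), each the lowest. In replicate 1 of the same population, Klf17 was at 1.28 (nearest 0.02) and Nr4a2 at 1.30 (nearest 0.35), each the highest. In Thy-1-CD24medCD49fhigh replicate 2, Per1 was at -2.50 (nearest -0.79), Fosb at -1.51 (nearest -0.47) and Klf6 at -1.62 (nearest -0.86), each the lowest. These 3 arrays also had the lowest medians over all rows (-0.51, -0.74 and -0.15), and the part of that in the single values was not tested.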

How the results depend on the processing

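For genes called in a comparison, or given there by smallest p, no difference changed sign in that comparison under any alternative fit. The other named genes were not checked for this. With each array centred on its median, the luminal minus basal median of the 9 Hspa genes went from 0.18 to -0.09. For luminal against basal arrays the 35 calls were 27 to 45 under the alternatives other than leaving out an array, and 19 (without CD24medCD49f-/low replicate 2) to 44 (without Thy-1+CD24medCD49fhigh replicate 2) with 1 array left out. The shares over all rows moved with these counts. They were 33.3% where 27 genes passed, 60.2% where 45 passed and 59.4% where 44 passed, against 45.1% in the main fit. The fit with 19 calls left 1 array of CD24medCD49f-/low cells, and fewer of all rows passed there too. The range is thus not particular to these genes. Of the 35 genes, 17 kept their call under every alternative: Dnaja3, Dnajb2, Dnajc12, Dnajc3, Dnajc6, Dusp16, Dusp18, Dusp4, Dusp8, Egr2, Gadd45a, Gadd45g, Ier5, Klf6, Myc, Socs4 and Zfp365. Without both low Thy-1+ arrays, a choice made with the values known, 38 passed (21 higher, 17 lower), where 49.7% of all rows did.

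For CD24highCD49fmed against CD24medCD49f-/low cells the 5 calls were 0 with all 14 arrays in 1 fit (0.0556% of rows). They were 11 with the replicate block (11.5% of rows) and 8 with array weights (10.1% of rows). With 1 CD24highCD49fmed array left out they were 0 to 7 (0.0417% to 9.21% of rows), and none of the 5 kept its call throughout. Among the basal populations, where 0 passed, rank products picked 1 gene for the Thy-1+ against the Thy-1- CD24medCD49fhigh cells and 2 for Thy-1-CD24medCD49fhigh against CD24medCD49fmed cells. With 1 array left out the Thy-1+ counts were 0 to 10 against CD24medCD49fmed cells (0% to 11.9% of rows) and 0 to 21 against both (0% to 29.3% of rows). The replicate block left all basal counts at 0 and gave 34 for luminal against basal arrays (47.7% of rows). With that block 0.765% of all rows passed for Thy-1+CD24medCD49fhigh against CD24medCD49fmed cells, where 0% passed without it. For the difference between replicate numbers the 3 calls were 14 with array weights (7.96% of rows), 0 in basal arrays alone, 11 in luminal arrays alone, and 0 to 3 with 1 array left out. The causes were not tested. Signal over background was not used here, so its limit on dim genes is unknown.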
